A study of Mus musculus with 203 samples.

Results

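Transcripts of 10 genes of major histocompatibility complex (MHC) class I antigen processing and presentation were followed in the airways and parenchyma of mouse lungs: H2-K1, H2-D1, B2m, Tap1, Tap2, Tapbp, Psmb8, Psmb9, Nlrc5 and H2-M2. They were chosen by name and found through their Ensembl identifiers, all 10 of them among the 43346 identifiers of the count table. All mice were female Balb/C animals given as 18 to 20 weeks old, and their lungs were dissected into airways and parenchyma for bulk RNA-seq. At week 3 the groups had received house dust mite extract (HDM) on 5 days per week (10 airway and 10 parenchyma libraries) or phosphate buffered saline (PBS; 11 airway and 12 parenchyma libraries). At week 11 there were 10 libraries in each of 16 groups, which combined HDM (given 3 times per week from week 4 to week 11) or PBS with cigarette smoke (CS; 2 exposures per day on 5 days per week over 8 weeks) or air (AIR), with or without the glucocorticoid dexamethasone (DEX) during week 11, in both tissues. Group names below follow the labels, so that HDM.CS.DEX received all 3 agents and PBS.AIR none. The labels and library codes do not say which airway and parenchyma library came from the same mouse, and all libraries were treated as independent.

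Nearly all nucleated cells display peptides from their own proteins on MHC class I molecules, which CD8 T cells read. Peptides are made by the proteasome, carried into the endoplasmic reticulum by the Tap1 and Tap2 transporter, and loaded with the help of tapasin (Tapbp) onto a heavy chain (H2-K1 or H2-D1) paired with beta-2-microglobulin (B2m). Interferon gamma is known to raise the whole set, to replace constitutive proteasome subunits by inducible ones such as Psmb8 and Psmb9, and to induce Nlrc5, a regulator that acts on promoters of class I genes.

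Of the 10 genes, 8 lie on chromosome 17 (GRCm38). H2-K1 spans chr17:33996017-34000347 (minus strand), Psmb9 chr17:34181987-34187764 (minus), Tap1 chr17:34187553-34197225 (plus), Psmb8 chr17:34197721-34201454 (plus), Tap2 chr17:34203527-34216321 (plus), Tapbp chr17:33915899-33929292 (plus), H2-D1 chr17:35262730-35267499 (plus) and H2-M2 chr17:37480851-37483552 (minus). B2m (chr2:122147686-122153083, plus) and Nlrc5 (chr8:94434356-94527272, plus) lie elsewhere. All 10 are annotated as protein coding in GENCODE M21.

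RefSeq promoter windows of GRCm38.p6, from 250 bases before to 50 bases after the start site, were matched for 8 of the 10 genes. They were searched on both strands for the core of an interferon response element (GAA, any pair of bases, then GAAAC), GGGNNTTCC (kappa B), TTCNNNGAA (gamma activated site), TGACG (part of the X box on which Nlrc5 complexes form) and ATTGG (Y box). The stretches before H2-K1, H2-M2 and B2m are shown because the 2 heavy chain genes differed most in how far they moved and B2m pairs with both, and those of H2-D1 because they can be set against H2-K1. Capitals mark matches in either direction to any of these motifs but the gamma activated site.
H2-K1 (chr17:34000349-34000478, minus strand): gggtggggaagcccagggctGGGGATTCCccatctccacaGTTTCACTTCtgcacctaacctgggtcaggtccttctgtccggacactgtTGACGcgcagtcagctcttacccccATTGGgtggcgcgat
H2-D1 (chr17:35262923-35262952, plus strand): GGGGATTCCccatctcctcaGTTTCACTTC
H2-D1 (chr17:35262993-35263022, plus strand): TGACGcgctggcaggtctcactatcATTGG
B2m (chr2:122147548-122147677, plus strand): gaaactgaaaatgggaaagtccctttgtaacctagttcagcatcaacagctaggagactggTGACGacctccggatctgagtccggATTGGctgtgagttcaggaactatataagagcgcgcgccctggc
H2-M2 (chr17:37483624-37483753, minus strand): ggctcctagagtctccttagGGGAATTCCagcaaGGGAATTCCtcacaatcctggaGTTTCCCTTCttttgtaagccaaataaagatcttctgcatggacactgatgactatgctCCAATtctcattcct

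In H2-K1, H2-D1 and B2m, TGACG was followed by ATTGG with 25 bases from the first base of one to the first base of the other. The interferon response core and the kappa B motif were found together in H2-K1, H2-D1 and H2-M2. These 3 of the 8 windows compare with 1.73% of all 32851 RefSeq windows for the interferon response core and 5.82% for kappa B, while TGACG was in 6 of 8 (20.8% of all windows), ATTGG in 7 of 8 (37.4%) and the gamma activated site in 1 of 8, that of Psmb8 (8.3%). Stretches of 130 bases were compared position by position without gaps. They were set with the kappa B motif at the same place, the earlier motif in H2-M2. H2-K1 and H2-D1 were identical at 90.8% of positions and H2-K1 and H2-M2 at 24.6%. The value for H2-M2 does not show how alike the stretches would be with gaps allowed, which was not tested. Psmb9 and Tap1 are transcribed away from each other from RefSeq start sites 226 bases apart, and their windows share 275 bases. Their GENCODE spans, given above, reach further and overlap by 212 bases. Their TGACG and ATTGG matches are the same sites, counted for each gene. H2-K1 and H2-D1 are much alike as well, so the 8 windows are not independent. A match is a string of letters in a reference sequence, and binding was not measured. Only exact matches to these strings were counted, so other forms of a site would be missed, in B2m as elsewhere. The reference is of the C57BL/6J strain, which carries other class I alleles than BALB/c mice.

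Total counts per library ranged from 13003154 to 40240733 (median 28090684). Levels are given as CPM, counts relative to the library's total, scaled over all libraries with trimmed mean of M values (TMM) factors, and fold changes as log2FC ± standard error from limma-voom, with a Benjamini-Hochberg adjusted p over all genes tested. A gene passed at an adjusted p under 0.05. In 3 libraries the log2 CPM correlated with the median of their own group at under 0.97: X63 (HDM airways, week 3), X81 (PBS airways, week 3) and X155 (PBS.CS.DEX airways, week 11). Markers of ciliated cells were higher in PBS airways than in PBS parenchyma (summed median at week 3 of 1069 against 578.7 CPM), and so were those of club cells (65498 against 34071 CPM), while those of alveolar type I cells were higher in the parenchyma (5129 against 3073 CPM). Heart muscle markers reached 4955 CPM in a PBS airway library and at most 83.3 CPM in any parenchyma library of week 3. Each library was taken as a replicate of its labelled group, and p-values set differences between groups against the spread of libraries within them.

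HDM exposure for 3 weeks raised all 10 genes in both tissues, where 34.1% of the 17377 genes tested rose in the airways and 33.4% in the parenchyma. The median log2FC of the 10 genes was 1.42 in airways and 1.64 in parenchyma, against -0.07 and -0.13 over all genes tested. No HDM library overlapped a PBS library of its tissue for any of the 10, a separation seen in the upward direction for 11.7% of genes in the airways and 20.3% in the parenchyma.

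**Figure D1:**
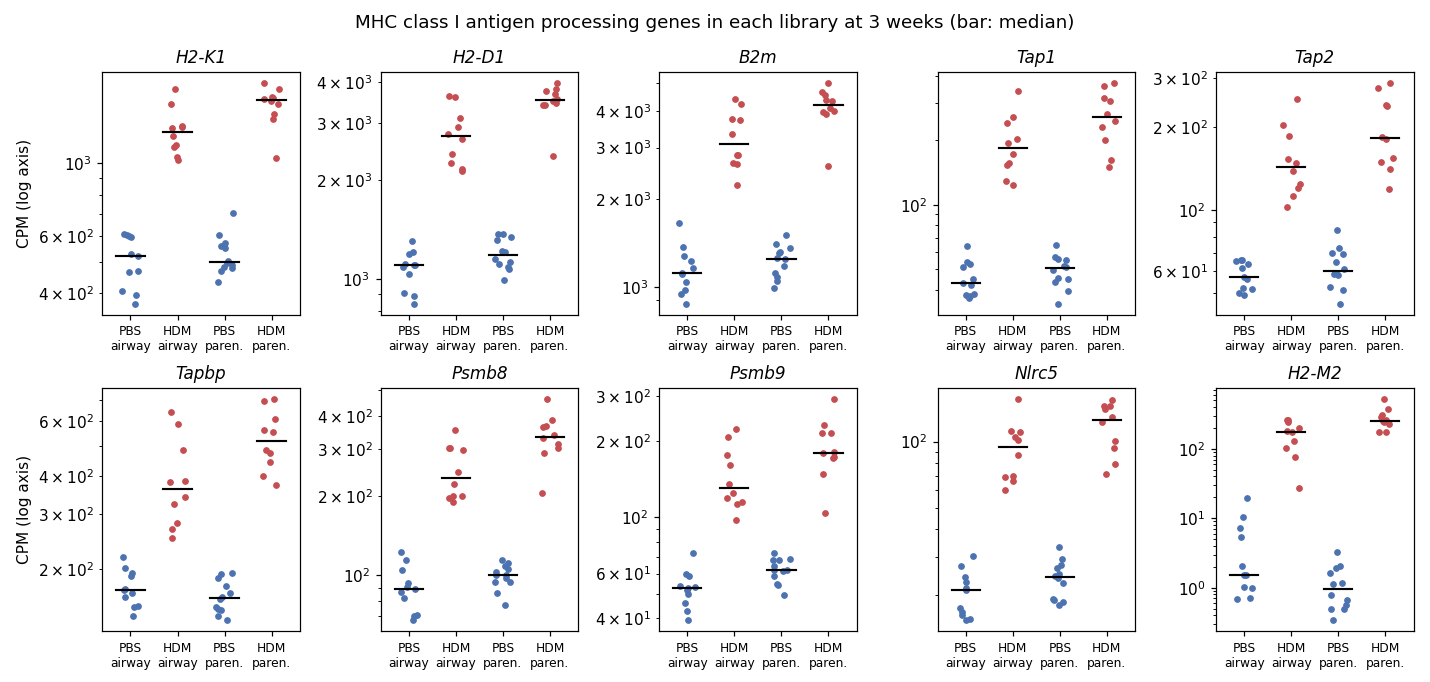
Levels of the 10 genes in each library at week 3, in CPM on a log axis, with PBS libraries in blue, HDM libraries in red and a bar at the group median. In every panel all HDM libraries lie above all PBS libraries of the same tissue, and H2-M2 rises from medians of 1.55 and 0.967 CPM to 176.8 and 253.5 CPM.

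The presenting molecules were abundant without HDM and rose 2.45- to 3.20-fold. H2-K1, a classical heavy chain, ranged from 371.3 to 605.9 CPM (median 518.4) in PBS airways and from 1022 to 1693 CPM (median 1247) in HDM airways (log2FC 1.29 ± 0.10, adj. p = 5.9e-15). In the parenchyma H2-K1 ranged from 434.1 to 706.9 CPM (median 499.2) with PBS and from 1039 to 1764 CPM (median 1562) with HDM (log2FC 1.45 ± 0.10, adj. p = 3.9e-17). H2-D1, the other classical heavy chain measured, had medians of 1103 and 2726 CPM in PBS and HDM airways (log2FC 1.32 ± 0.09) and of 1181 and 3526 CPM in the parenchyma (log2FC 1.47 ± 0.09). Both heavy chains thus moved by nearly the same amount. B2m, the light chain, ranged from 874.9 to 1657 CPM (median 1117) in PBS airways and from 2232 to 4388 CPM (median 3082) in HDM airways (log2FC 1.45 ± 0.11, adj. p = 4.0e-15), and it rose by a log2FC of 1.68 ± 0.11 in the parenchyma (adj. p = 1.1e-17). H2-K1, H2-D1 and B2m together took a median 0.273% of all counts in PBS airways and 0.721% in HDM airways, and 0.273% and 0.888% in the parenchyma.

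The transporter subunits did not move alike. Tap1 ranged from 36.7 to 64.3 CPM (median 43.1) in PBS airways and from 124.2 to 341.4 CPM (median 183.5) in HDM airways, a 4.08-fold rise (log2FC 2.03 ± 0.15, adj. p = 1.3e-15). In the parenchyma Tap1 went from a median of 50.4 to 256.8 CPM (log2FC 2.30 ± 0.15, adj. p = 1.1e-17). Tap2 rose 2.51-fold in airways (49.3 to 65.8 against 102.1 to 251.6 CPM) and 2.96-fold in parenchyma (medians 60 and 182.4 CPM). Per kb of exon, the transporter's transcripts were close to each other in HDM parenchyma, at 46.9 CPM per kb for Tap1 and 48.2 for Tap2. The lowest medians of all groups were in airways of week 11, 3.99 CPM per kb for Tap1 in PBS.AIR.DEX and 13 for Tap2 in PBS.CS.DEX. Tapbp, which bridges transporter and heavy chain, had the smallest rise of the 10 genes in the airways (log2FC 1.09 ± 0.12, adj. p = 2.1e-10; medians 171.5 and 361.9 CPM). Its rise in the parenchyma was larger (log2FC 1.61 ± 0.12; medians 161.1 and 518.2 CPM).

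Psmb8 and Psmb9, inducible catalytic subunits that take the places of Psmb5 and Psmb6, rose 2.70- and 2.66-fold in the airways and 3.19- and 2.88-fold in the parenchyma. Psmb8 ranged from 67.9 to 122.7 CPM (median 88.6) in PBS airways and from 189.5 to 354.1 CPM (median 233.2) in HDM airways. The constitutive counterparts moved little: the log2FC of Psmb5 was 0.22 ± 0.08 in airways and 0.50 ± 0.08 in parenchyma (both passed), and that of Psmb6 was 0.05 ± 0.06 (adj. p = 0.44) and 0.30 ± 0.06 (passed). Within each library the ratio of Psmb8 to Psmb5 counts per kb had a median of 0.43 in PBS airways and 0.95 in HDM airways, and of 0.49 and 1.12 in the parenchyma. On the log2 scale this was a difference of 1.21 in airways (SD 0.25 with PBS, n = 11; 0.30 with HDM, n = 10) and 1.17 in parenchyma (SD 0.13, n = 12; 0.26, n = 10). Psmb9 to Psmb6 moved by 1.36 and 1.22, and Psmb10 to Psmb7, the remaining inducible and constitutive pair, by 0.74 and 0.82. In all 6 comparisons HDM and PBS libraries did not overlap, and the 2-sided permutation p was 2e-05, the smallest that 100000 resamples can give (adjusted over 24 ratio tests, 4.8e-05).

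**Figure D2:**
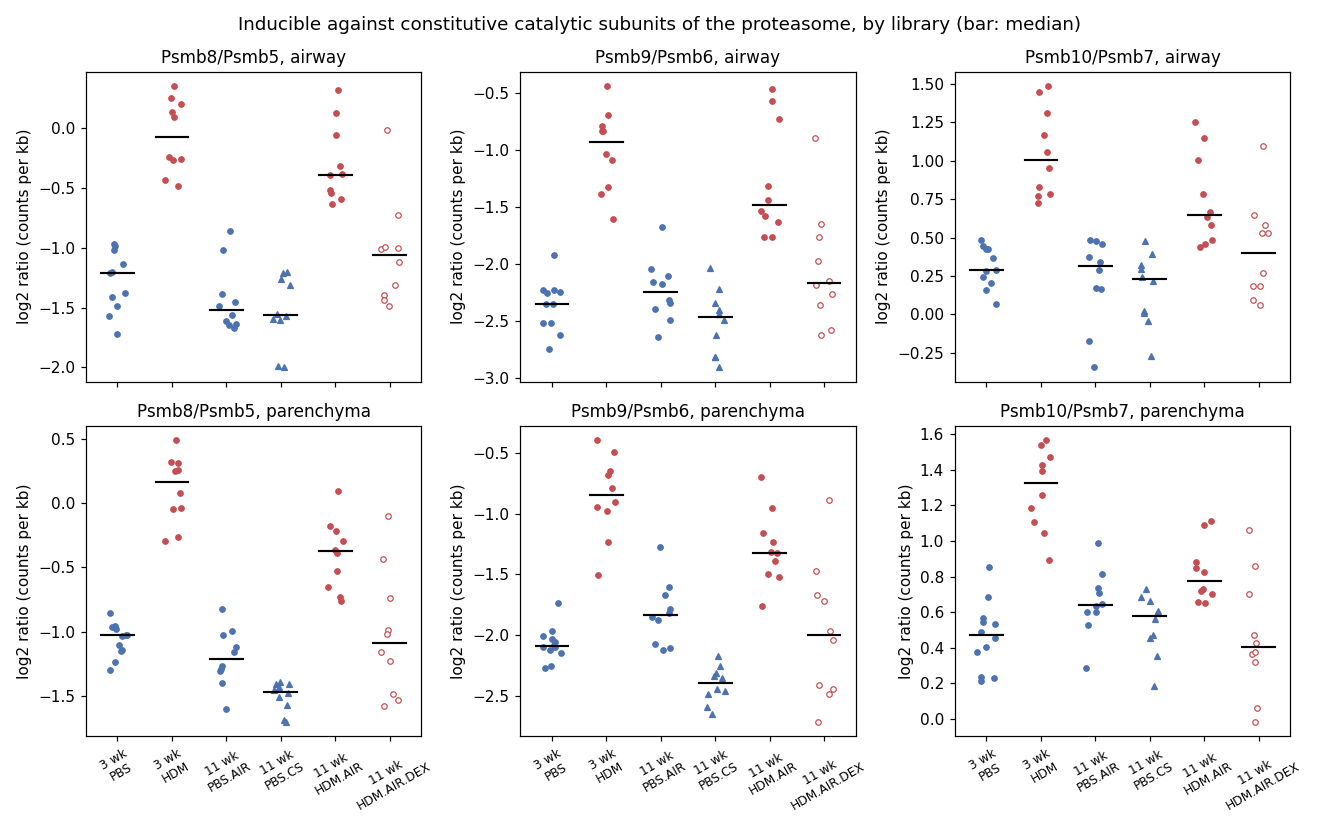
Log2 ratio of inducible to constitutive catalytic subunit (counts per kb of exon) in each library, by group and tissue, with a bar at the median; open circles are HDM.AIR.DEX and triangles PBS.CS. At week 3 all HDM libraries lie above all PBS libraries in all 6 panels. At week 11 all HDM.AIR libraries lie above all PBS.AIR libraries for Psmb8/Psmb5 in both tissues and in none of the other 4 panels. HDM.AIR.DEX libraries overlap PBS.AIR libraries for Psmb8/Psmb5 in both tissues.

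Nlrc5, the class I regulator, ranged from 15.5 to 30.3 CPM (median 21.3) in PBS airways and from 60.1 to 155.9 CPM (median 94.6) in HDM airways (log2FC 2.10 ± 0.15, adj. p = 7.9e-16). In the parenchyma its medians were 24.3 and 125.7 CPM (log2FC 2.22 ± 0.15, adj. p = 8.1e-17). Nlrc5 and Tap1 thus had the largest rises after H2-M2 in both tissues. Per kb of exon, Nlrc5 had the lowest level of all 10 genes in HDM parenchyma, 14.8 CPM per kb, where B2m had 4895.

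H2-M2, a nonclassical heavy chain gene of the M region, differed from the other 9 in scale. It ranged from 0.684 to 19.6 CPM (median 1.55, 19 to 643 counts) in PBS airways and from 27.3 to 258.2 CPM (median 176.8) in HDM airways, a 52.8-fold rise (log2FC 5.72 ± 0.48, adj. p = 5.8e-14). In the parenchyma it ranged from 0.343 to 3.25 CPM (median 0.967, 6 to 71 counts) with PBS and from 175.3 to 519.9 CPM (median 253.5) with HDM (log2FC 7.98 ± 0.67, adj. p = 4.3e-14). PBS libraries of the airways spread more widely than those of the parenchyma, and the highest of them was X81. Without X63, X81 and X155 the log2FC in airways was 6.29. Per kb, HDM parenchyma held 163.4 CPM of H2-M2, under H2-K1 (531.7) and above Tapbp (142.8).

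The rises at week 3 were compared between tissues by an interaction term, airways less parenchyma, in which 17.3% of genes passed in either direction. Of the 10 genes only Tapbp passed, with a smaller rise in the airways (difference in log2FC -0.53 ± 0.17, adj. p = 0.029), and without X63, X81 and X155 it did not (-0.46, adj. p = 0.062). For H2-M2 the difference was larger but less certain (-2.26 ± 0.83, adj. p = 0.051), and it passed in edgeR (-2.71, adj. p = 0.0031) and DESeq2 (-2.77, adj. p = 7.7e-04). Without X63, X81 and X155 limma-voom gave -1.69 (adj. p = 0.058) for H2-M2. In PBS mice none of the 10 genes differed between tissues in limma-voom (56.1% of genes did). Of these 10 comparisons none had an unadjusted p under 0.05, and H2-M2 was higher in airways by edgeR (log2FC 1.97, adj. p = 7.8e-04) and by DESeq2 (2.01, adj. p = 3.8e-05). Both of these fits included X81, the library with the highest H2-M2 level of the PBS airways. Without X63, X81 and X155 limma-voom gave 1.05 (adj. p = 0.13). In HDM mice 6 of 10 were lower in the airways (16.7% of genes): H2-D1, B2m, Tapbp, Psmb8, Psmb9 and H2-M2, with log2FC from -0.30 to -0.89. Calls near the threshold depended on the setting: H2-M2 did not pass in edgeR (-0.74, adj. p = 0.15) or DESeq2 (-0.77, adj. p = 0.19), DESeq2 added H2-K1 (-0.25), Tap1 (-0.40) and Tap2 (-0.35), and without the 3 libraries B2m (-0.29, adj. p = 0.065) and Psmb9 (-0.30, adj. p = 0.086) did not pass. All tests between tissues treat the libraries as independent, although airways and parenchyma of the same mouse may be among them.

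HDM raised all 10 genes at week 11 as well, against 31.3% of 18250 genes in airways and 32.6% in parenchyma. The median log2FC of the 10 was 1.41 in airways and 1.25 in parenchyma, against 0.00 and 0.05 over all genes. H2-K1 went from a median of 422.2 CPM in PBS.AIR to 1055 CPM in HDM.AIR airways (log2FC 1.42 ± 0.13, adj. p = 9.1e-20), and Tap1 from 38.8 CPM (33.2 to 62.8) to 103.4 CPM (87.6 to 234.2; log2FC 1.58 ± 0.17, adj. p = 5.5e-16). H2-M2 rose 35.3-fold in airways (medians 2.63 and 88.1 CPM; adj. p = 2.6e-21) and 82.8-fold in parenchyma (1.33 and 124.6 CPM; adj. p = 4.1e-21). Groups did not overlap for 8 of the 10 in airways (all but Psmb9 and Nlrc5; 10.5% of genes) and for 9 in parenchyma (all but Psmb9; 11.8%). As at week 3, Tap1, Nlrc5 and H2-M2 rose most.

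Between the 2 schedules the rise differed in the parenchyma. Taken as the log2FC at week 11 less that at week 3, in a fit of all libraries, it was lower at week 11 for 8 of 10 genes (20.9% of genes were), by 0.34 for H2-D1 up to 0.91 for Tap1 (adj. p = 6.0e-04), with Tap2 (-0.86, adj. p = 1.7e-06) and Tapbp (-0.89, adj. p = 7.3e-08) in between. H2-K1 (-0.35, adj. p = 0.083) and H2-M2 (-1.73 ± 0.85, adj. p = 0.089) did not pass in limma-voom, while H2-M2 did in edgeR (-1.59, adj. p = 0.033) and DESeq2 (-1.59, adj. p = 0.025) and both did with sample quality weights (H2-K1 -0.37, adj. p = 0.033; H2-M2 -1.84, adj. p = 0.035). In airways none of the 10 passed in limma-voom (28.4% of genes did so in either direction; 3 of the 10 had an unadjusted p under 0.05), and Tap2 did in edgeR (-0.40, adj. p = 0.044) and DESeq2 (-0.42, adj. p = 0.034). Time and HDM schedule cannot be told apart in this comparison, and the labels do not say whether the mice of week 11 had also received HDM in weeks 1 to 3. At week 11 the rise did not differ between tissues for any of the 10 in limma-voom (27.6% of genes in either direction), with no unadjusted p under 0.05, whereas H2-M2 passed in edgeR (-1.55, adj. p = 0.036) and DESeq2 (-1.57, adj. p = 0.037). In PBS.AIR mice 5 of 10 were lower in the airways (30.1% of genes): H2-K1, H2-D1, B2m, Tap2 and Tapbp, with log2FC from -0.23 to -0.39. Tap2 did not pass in edgeR (-0.23, adj. p = 0.054) or DESeq2 (-0.21, adj. p = 0.073), and both found H2-M2 higher in the airways (1.26, adj. p = 0.011, and 1.28, adj. p = 0.0067). X65 of the PBS.AIR airways had 17.3 CPM of H2-M2 against 5.94 in the next library, and no fit left it out.

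CS alone moved few of the genes. In airways none of the 10 passed (13.7% of genes did), 1 had an unadjusted p under 0.05 (H2-M2, log2FC 1.12 ± 0.50, adj. p = 0.13), and none passed in edgeR or DESeq2. In the parenchyma B2m (-0.25 ± 0.10, adj. p = 0.046) and Nlrc5 (-0.73 ± 0.23, adj. p = 0.0067) fell, where 18.2% of genes did. Nlrc5 ranged from 16.7 to 35.9 CPM (median 22.8) in PBS.AIR and from 10.8 to 20.1 CPM (median 13.5) in PBS.CS parenchyma, so the groups overlapped. The proteasome ratios moved too. In the parenchyma Psmb9 to Psmb6 was lower with CS by 0.59 on the log2 scale with no overlap (mean -2.41, SD 0.15, against -1.82, SD 0.26; n = 10 each; adjusted permutation p = 4.8e-05), Psmb8 to Psmb5 by 0.30 (adjusted permutation p = 0.0019), while Psmb10 to Psmb7 differed by -0.12 (adjusted permutation p = 0.15). In airways Psmb9 to Psmb6 was lower by 0.28 (adjusted permutation p = 0.046), and the other 2 ratios did not pass. Psmb5 and Psmb6 themselves rose with CS in the parenchyma (log2FC 0.31 ± 0.09 and 0.32 ± 0.07), and Psmb8 and Psmb9 did not pass.

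When CS was added to HDM, all 10 genes were lower than with HDM alone in both tissues, where 16.2% of genes passed in either direction in airways and 14.1% fell in parenchyma. Their median log2FC was -0.63 and -0.78, against -0.01 over all genes in each tissue. In the parenchyma H2-M2 ranged from 49 to 309.9 CPM (median 124.6) in HDM.AIR and from 5.66 to 40.5 CPM (median 13.7) in HDM.CS, 8.62-fold lower (log2FC -3.11 ± 0.30, adj. p = 1.5e-15). Nlrc5 was 2.33-fold lower (45.6 to 108.4 CPM against 21 to 43.1; adj. p = 2.3e-07) and B2m 1.68-fold lower (2293 to 4064 CPM against 1579 to 2227; adj. p = 7.1e-08). These 3 were the genes without overlap in the parenchyma (1.19% of genes), and B2m was the only such gene of the 10 in airways (0.477%). Tap1 fell from a median of 120.3 to 58.3 CPM in parenchyma (log2FC -1.19 ± 0.16, adj. p = 5.6e-09) and from 103.4 to 66.3 CPM in airways (-0.86 ± 0.16, adj. p = 3.7e-05), with libraries that overlapped. Tapbp moved least in both tissues (log2FC -0.41 ± 0.10 in airways and -0.51 ± 0.10 in parenchyma).

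**Figure D3:**
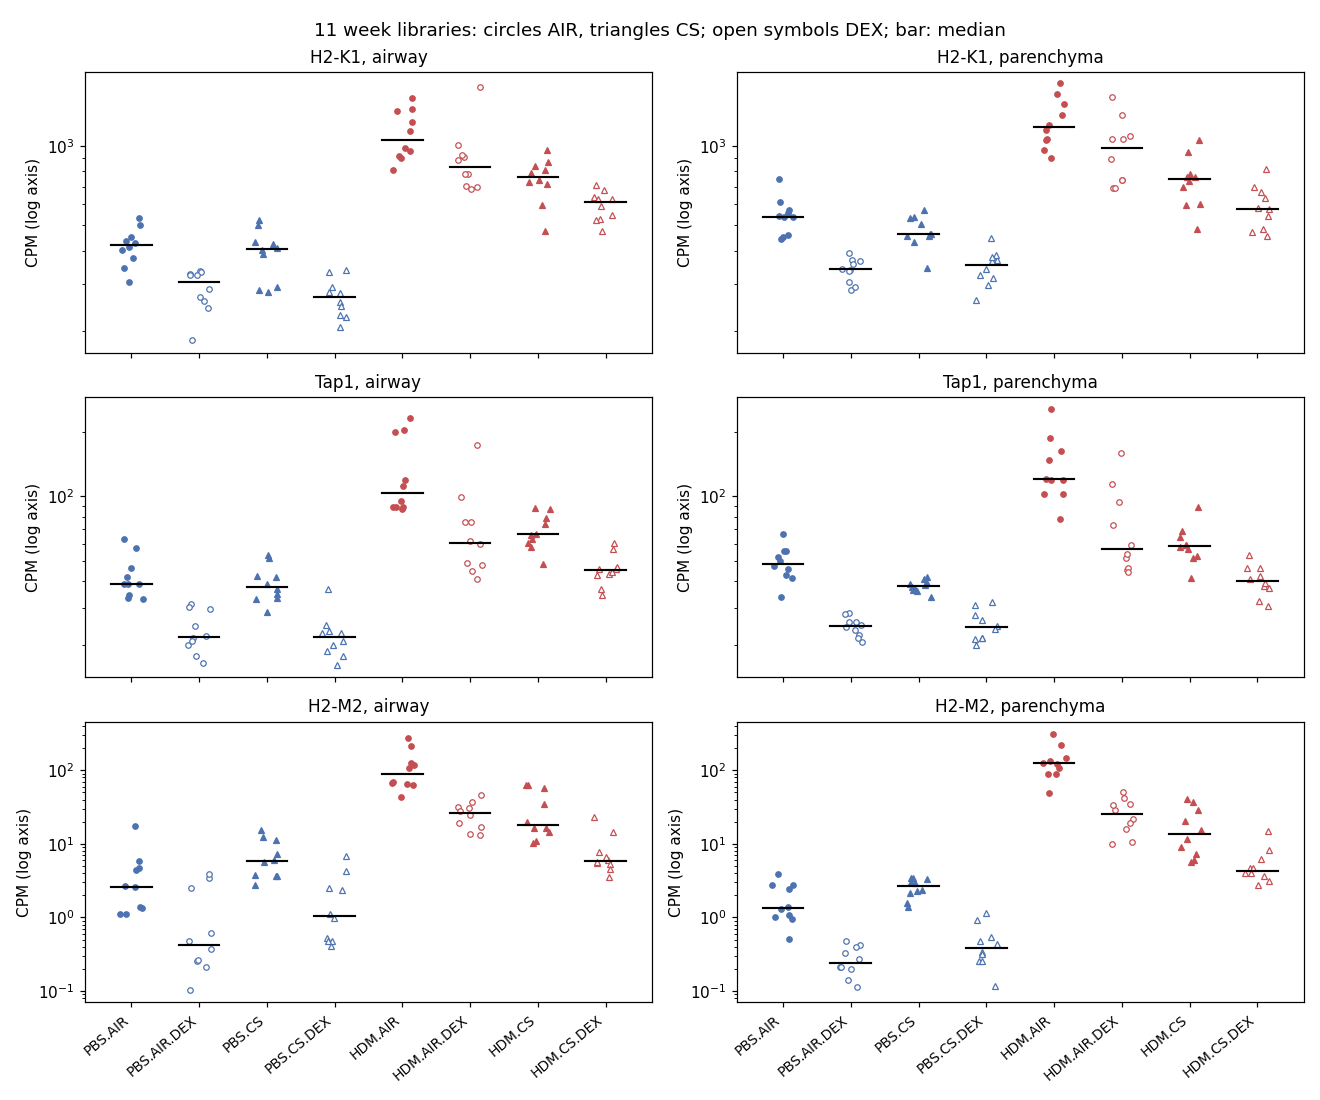
Levels of H2-K1, Tap1 and H2-M2 in each library of the 16 groups at week 11, in CPM on a log axis, airways on the left and parenchyma on the right; blue is PBS, red HDM, circles AIR, triangles CS, open symbols DEX, bars medians. H2-M2 medians in the parenchyma step down from 124.6 CPM in HDM.AIR to 25.4 in HDM.AIR.DEX, 13.7 in HDM.CS and 4.33 in HDM.CS.DEX, and stay under 3 CPM in the 4 PBS groups.

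The interaction of HDM and CS was negative for all 10 genes in both tissues. It passed for 7 of 10 in airways (11.4% of genes were lower), with H2-K1 (-0.47 ± 0.18, adj. p = 0.053), Psmb9 (-0.51 ± 0.20, adj. p = 0.059) and Nlrc5 (-0.74 ± 0.28, adj. p = 0.052) just outside. H2-K1 and Psmb9 passed in edgeR (adj. p = 0.041 and 0.039) and DESeq2 (adj. p = 0.039 and 0.038), and Nlrc5 did without X63, X81 and X155 (-0.74, adj. p = 0.049). In the parenchyma it passed for 9 of 10 (18.7% of genes), from -0.50 for B2m to -3.78 ± 0.74 for H2-M2 (adj. p = 1.0e-05), and Nlrc5 did not pass (-0.49 ± 0.30, adj. p = 0.20), the gene that fell most with CS alone. Against PBS.AIR, mice with both HDM and CS still had higher levels of all 10 genes in airways (25.2% of genes). In the parenchyma 6 of 10 were higher (25.4%), and Tap1 (0.33 ± 0.16, adj. p = 0.087), Tap2 (0.20 ± 0.10, adj. p = 0.088), Psmb9 (0.19 ± 0.14, adj. p = 0.27) and Nlrc5 (0.38 ± 0.20, adj. p = 0.12) did not pass. These comparisons share the PBS.AIR, PBS.CS, HDM.AIR and HDM.CS libraries in part.

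**Figure D4:**
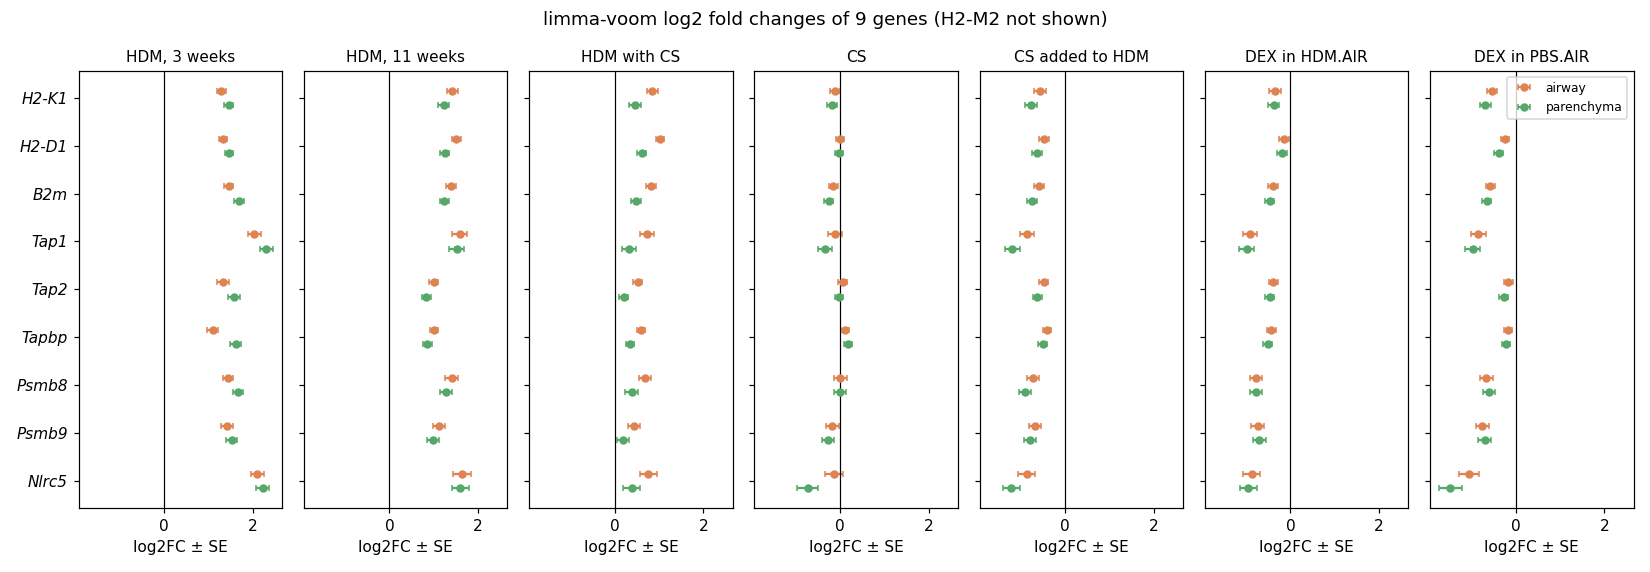
Log2 fold changes of 9 of the genes (H2-M2 lies outside the scale) with their standard errors from limma-voom, airways in orange and parenchyma in green, in 7 comparisons. Values of HDM alone lie between 0.83 and 2.30, those of CS alone between -0.73 and 0.19, and those of CS added to HDM and of DEX all under 0.

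DEX lowered most of the 10 genes in each setting, with or without HDM. Added to HDM.AIR, it lowered 9 of 10 in airways (16% of genes) and 9 of 10 in parenchyma (16.2%), all but H2-D1 (-0.15 ± 0.11, adj. p = 0.31, and -0.19 ± 0.11, adj. p = 0.19). Tap1 ranged from 77.9 to 257.9 CPM (median 120.3) in HDM.AIR and from 44.4 to 159.5 CPM (median 56.4) in HDM.AIR.DEX parenchyma (log2FC -0.99 ± 0.17, adj. p = 5.0e-07), and the groups overlapped. H2-M2 fell 4.14-fold in airways (43.1 to 271.8 CPM against 13.2 to 45.6) and 5.65-fold in parenchyma (49 to 309.9 CPM against 10 to 50.7). The ratio of Psmb8 to Psmb5 was lower by 0.75 in airways (adjusted permutation p = 0.0011) and 0.63 in parenchyma (0.0045), on the log2 scale, and the other 2 ratios were lower as well, by 0.33 to 0.77.

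Without HDM, DEX lowered 7 of 10 in PBS.AIR airways (6.85% of genes) and 8 of 10 in PBS.AIR parenchyma (12%). Nlrc5 moved most among the genes that passed in parenchyma, from 16.7 to 35.9 CPM down to 6.9 to 10.5 CPM (log2FC -1.47 ± 0.25, adj. p = 1.9e-06), without overlap. Groups did not overlap for 4 of 10 in parenchyma (2.3% of genes), H2-K1, Tap1, Nlrc5 and H2-M2, and for 2 of 10 in airways (0.384%), Tap1 and Psmb9. H2-M2 of the parenchyma ranged from 0.508 to 3.90 CPM in PBS.AIR and from 0.115 to 0.474 CPM in PBS.AIR.DEX (3 to 16 counts), yet its log2FC of -2.51 ± 1.02 did not pass in limma-voom (adj. p = 0.062) and did in edgeR (-2.67, adj. p = 4.1e-04) and DESeq2 (-2.70, adj. p = 2.7e-07). With CS, DEX lowered 8 of 10 in PBS.CS airways (6.6% of genes), 9 in PBS.CS parenchyma (9.49%), 6 in HDM.CS airways (7.05%) and 6 in HDM.CS parenchyma (5.4%). H2-D1 was lowered in PBS.CS in both tissues (-0.35 ± 0.09, adj. p = 0.005, and -0.40 ± 0.10, adj. p = 9.4e-04) and passed in neither tissue in HDM.CS.

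The rise with HDM was present under DEX. All 10 genes were higher in HDM.AIR.DEX than in PBS.AIR.DEX in airways (23.6% of genes) and parenchyma (22.6%), with a median log2FC of 1.54 and 1.43. The interaction of HDM and DEX passed for 0 of 10 in either tissue by limma-voom, edgeR and DESeq2 (4.62% of genes in airways and 12.4% in parenchyma passed in either direction by limma-voom). No airway value and 1 parenchyma value had an unadjusted p under 0.05 (Tapbp, -0.30 ± 0.13). The intervals were wide for some genes: the interaction was 0.53 ± 0.32 for Nlrc5 and 0.02 ± 1.06 for H2-M2 in the parenchyma.

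Across the 20 groups the median of every one of the 10 genes was highest in HDM parenchyma of week 3. For H2-K1, H2-D1 and B2m the medians of all 10 HDM groups lay above those of all 10 PBS groups, HDM.CS.DEX included. For the other 7 genes some HDM groups lay among the PBS groups, and HDM.CS.DEX of both tissues was within the PBS range of medians for each of them. The ratio of highest to lowest group median was 3.56 for Tapbp, 3.72 for Tap2, 4.94 to 7.09 for H2-D1, H2-K1 and B2m, 7.89 and 8.48 for Psmb9 and Psmb8, 11.8 for Tap1, 18.8 for Nlrc5 and 1.04e+03 for H2-M2. Ranked by median, neighbouring groups overlapped in all 19 steps for 9 genes and in 18 of 19 for Tap1, so that single steps in these orders lie within the spread between libraries.

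Other genes of the pathway, 85 in 7 lists of which 79 were tested at week 3 and 78 at week 11, moved in the same direction less uniformly. At week 3 HDM raised 55 and lowered 9 of 79 in airways, and raised 60 and lowered 7 in parenchyma, where 34.1% and 33.4% of all genes rose. Among other class I heavy chains 12 of 15 rose in each tissue, led by H2-Q1 (log2FC 2.54 ± 0.21 in airways, 3.23 ± 0.23 in parenchyma). Of the constitutive proteasome subunits 5 of 16 rose and 3 fell in airways, with a median log2FC of 0.06, a share of rises near that of all genes, while the interferon gamma list had 14 of 15 higher in each tissue and a median of 1.80 and 2.60. Its chemokines moved furthest, Cxcl9 by 5.31 ± 0.50 and 7.25 ± 0.64. Interferon gamma itself (Ifng) rose from medians of 0.513 to 3.61 CPM in airways (log2FC 2.77 ± 0.37, adj. p = 8.8e-09) and from 0.691 to 6.53 CPM in parenchyma (2.91 ± 0.34, adj. p = 3.3e-10). The transcription factor Irf1 (1.13 ± 0.12 and 1.32 ± 0.12), which acts downstream of it, rose too.

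Of 5 other peptide loading genes 4 rose in each tissue with HDM at week 3. Of 7 trimming genes 6 rose in airways and 5 in parenchyma, against 34.1% and 33.4% of all genes. Those more than 2-fold higher included the chaperone calreticulin (Calr; 1.18 ± 0.10 and 1.64 ± 0.09), the tapasin relative Tapbpl (1.17 ± 0.12 and 1.49 ± 0.12) and the aminopeptidases Erap1 (1.01 ± 0.08 and 1.04 ± 0.08) and Lap3 (1.27 ± 0.08 and 1.86 ± 0.08). At week 11 HDM raised 58 of 78 in airways (31.3% of all genes) and 62 in parenchyma (32.6%), and DEX added to HDM.AIR lowered 46 of 78 in each tissue (16% and 16.2%). CS added to HDM lowered 34 of 78 in airways (16.2% of all genes passed in either direction) and 44 in parenchyma (14.1% fell), where 14 of 15 genes of the interferon gamma list fell, among them Ifng (-1.18 ± 0.30, adj. p = 0.0016). CS alone lowered 13 of 78 in parenchyma, a smaller share than the 18.2% of all genes. Ifng (-0.85, adj. p = 0.15) did not pass there, whereas the guanylate and immunity-related GTPases Gbp4 (-0.96 ± 0.29), Igtp (-0.94 ± 0.26) and Irgm2 (-1.04 ± 0.20) fell and Relb (0.90 ± 0.13) and Nfkb2 (0.83 ± 0.12), of the noncanonical kappa B pathway, rose.

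The genes whose means over the 20 groups followed those of 4 of the 10 most closely (Pearson r of mean log2 CPM, 17169 genes compared) included Gbp8, H2-K2, Cst7 and Sp110 for Tap1 (r 0.986 to 0.985), H2-Q2, Gm8810, H2-M3, H2-Q4 and H2-Q7 for H2-K1 (0.988 to 0.978), H2-Q7, 9330175E14Rik, Cst7, Slfn8 and H2-Q10 for Nlrc5 (0.986 to 0.984), and Crmp1, Slamf8, Serpina10, Pdcd1 and Tigit for H2-M2 (0.984 to 0.979). H2-M2 thus had no other class I gene among its 5. Between pairs of the 10 genes r ran from 0.87 (Tapbp and Nlrc5) to 0.99. All groups share the contrast of HDM with PBS, so these values describe one set of groups and carry no test.

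Levels of cell markers changed with several of these exposures, not always in the direction of the 10 genes. The summed level of 8 leukocyte markers ranged from 614.6 to 1254 CPM in PBS airways and from 1272 to 3393 CPM in HDM airways at week 3, and from 893.8 to 1150 against 2857 to 3639 CPM in parenchyma, with all 8 higher in both tissues. B cell markers were higher with HDM for 8 of 8 in airways and 6 of 8 in parenchyma, and T cell markers for 8 of 8 in both. Of all genes tested 34.1% rose in airways and 33.4% in parenchyma. All 7 neutrophil markers rose in each tissue (summed median 240.8 and 998.6 CPM in PBS and HDM airways, 430.6 and 1664 CPM in parenchyma), as did 7 of 8 macrophage markers, while the other fell in airways and did not pass in parenchyma. The summed median of 7 dendritic cell markers went from 125.8 to 503.6 CPM in airways and from 125.9 to 646.3 CPM in parenchyma. Of the 7, 3 passed upward in airways and 4 in parenchyma, against 34.1% and 33.4% of all genes. In each tissue 1 passed downward. The sum of 9 CD8 and NK cell markers did not rise in parallel. Its median was 119.5 and 137.1 CPM in PBS and HDM airways and 254.8 and 206.5 CPM in the parenchyma. In the parenchyma 3 of 9 rose, a share near that of all genes, and 3 fell. At week 11 CS added to HDM lowered 8 of 9 CD8 and NK cell markers in airways (16.2% of all genes passed in either direction). In parenchyma it lowered 9 of 9 (14.1% of all genes fell), with a summed median of 90.8 CPM in HDM.AIR and 45.1 in HDM.CS. There it also lowered 5 of 8 leukocyte markers and 1 of 8 macrophage markers, the latter a share near that of all genes. Another 2 macrophage markers rose. DEX added to HDM.AIR lowered 9 of 9 CD8 and NK cell markers and 5 of 8 leukocyte markers in each tissue. With DEX added, 16% of all genes fell in airways and 16.2% in parenchyma. In PBS.AIR and PBS.CS parenchyma the summed leukocyte medians were 881.5 and 1373 CPM, and those of macrophage markers 7770 and 13060. The CD8 and NK cell medians were 163.8 and 50.5 CPM there. DEX took macrophage medians in parenchyma from 7770 to 12475 CPM in PBS.AIR and from 17830 to 20170 in HDM.AIR. Leukocyte medians went from 881.5 to 747.2 CPM and from 2592 to 1711 CPM. In bulk tissue, fewer cells of a type and less RNA per cell cannot be told apart, and the part of these shifts in cell markers in the changes of the 10 genes was not tested.

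Some reads could belong to neighbours or relatives of these genes. Of all 100-base stretches in their GENCODE transcripts, 3.59% in H2-D1, 0.957% in H2-K1 and 0.0775% in Tapbp also occur in another gene, and none in the other 7. Estimated counts were not whole in nearly all libraries for H2-D1 and H2-K1, and in 85 libraries for each of Tap1 and Tap2. They were whole in every library for B2m, Tapbp, Psmb8, Psmb9, Nlrc5 and H2-M2. Why counts were not whole was not tested. The lack of shared stretches thus does not show that Tap1 and Tap2 counts hold no reads of other genes. Tapbp overlaps Zbtb22 by 3422 bases on the same strand (median counts 6026 and 771), and Tap1 overlaps Psmb9 by 212 bases and Nlrc5 the noncoding 9330175E14Rik by 748 bases on opposite strands (median counts 644 and 99). The strand setting of the counting is not given in the sources used here, so reads from opposite strands may not have been told apart. How reads of BALB/c class I alleles were placed on the C57BL/6J reference was not tested.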

How the data were processed

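RNA-seq reads of 100 bases were, per the labels and methods, aligned with STAR 2.5.1b to mm10. RSEM 1.2.31 and kallisto 0.44.0 are both named for quantification. The authors deposited a single table of estimated counts per Ensembl gene, not normalized, for 203 libraries. Which of these tools made the table, and its strand setting, are not given in the sources used here. Of its nonzero values 20.3% were not whole, and all were rounded. Of 43346 identifiers 42462 were matched to a mouse symbol, without their version number, since 23106 matched GENCODE M21 with it.

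Counts were fitted with limma-voom (limma 3.58.1, edgeR 4.0.16, R 4.3.3) with TMM factors and a mean per group, separately for 3 and 11 weeks, except that the difference between weeks used all libraries. Genes were kept that reached, in at least 9 libraries, the CPM equal to 10 counts in the median library (17377 and 18250 genes), and all 10 genes passed in both fits. Ratios of proteasome subunits (0.5 added to each count) were compared by 2-sided permutation tests of the difference of means with 100000 resamples. The 10 genes and all gene and marker lists were chosen with earlier results of these data known. Other genes were named as the up to 3 of each pathway list with the largest change among those that passed in a main comparison, plus Psmb5, Psmb6, Psmb7, Psmb10, Irf1, Ifng and, for 4 of the 10 genes, the 5 closest in pattern over the 20 groups. An item that this rule names is not reported here. Further tests used edgeR's quasi-likelihood test and DESeq2 1.42.0. Scripts were tested on simulated data. Total counts of at least 13003154 per library left H2-M2, with as few as 3 counts, as the only one of the 10 genes under 99 counts in any library. Promoter sequences and coordinates came from RefSeq (GRCm38.p6) and GENCODE M21. For Tap2 and Nlrc5 no promoter window was used here.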

Additional observations from a re-analysis of the deposited data

Results flagged for a closer look

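Within groups of 10, single libraries stood apart for 18 of 180 combinations of gene and group, and groups of over 10 were not tested. The limit flags about 5% of tests where values are normal. Flags here are not independent, since a library can be flagged for several genes, so an excess over that share was not tested. X11 (HDM.AIR.DEX airways) was the highest of its group for 9 of the 10 genes and stood apart for 6 of them, with 1667 CPM of H2-K1 (next 1002), 3824 of H2-D1 (2599), 173.9 of Tap1 (99.2), 151.1 of Tap2 (106.98), 206.8 of Psmb8 (131.3) and 123.01 of Psmb9 (70.98). X4 (HDM parenchyma, week 3) was the lowest for H2-D1 at 2368 CPM (next 3390) and for B2m at 2594 CPM (3908). X75 (PBS.CS.DEX airways) was highest for Tap1 at 36.6 CPM (24.9) and Psmb8 at 63.6 CPM (47.8). X99 (HDM.CS.DEX airways) was highest for Tap2 at 88.5 CPM (73.1) and Psmb9 at 65.7 CPM (51.1). X173 (PBS.CS parenchyma) was highest for Psmb8 at 121.95 CPM (82.9) and Psmb9 at 66.4 CPM (48.6). The remaining values were Tap2 in X178 (HDM.CS parenchyma), lowest at 57.7 CPM (73.8), Nlrc5 in X110 (HDM.AIR parenchyma), highest at 108.4 CPM (77.1), and H2-M2 in X65 (PBS.AIR airways) at 17.3 CPM (5.94) and in X180 (HDM.CS.DEX parenchyma) at 15.1 CPM (8.34).

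Effects of HDM differed between groups in 25 tests of the difference itself by limma-voom. Between tissues at week 3, Tapbp differed by -0.53 (adj. p = 0.029). Between CS and AIR in airways, the log2FC with HDM differed by -0.49 for H2-D1, -0.43 for B2m, -0.75 for Tap1, -0.55 for Tap2, -0.53 for Tapbp, -0.73 for Psmb8 and -3.17 for H2-M2. In parenchyma it differed by -0.58 for H2-K1, -0.62 for H2-D1, -0.50 for B2m, -0.86 for Tap1, -0.61 for Tap2, -0.70 for Tapbp, -0.90 for Psmb8, -0.52 for Psmb9 and -3.78 for H2-M2. Between week 11 and week 3 in parenchyma it differed by -0.34 for H2-D1, -0.57 for B2m, -0.91 for Tap1, -0.86 for Tap2, -0.89 for Tapbp, -0.53 for Psmb8, -0.67 for Psmb9 and -0.74 for Nlrc5.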

How the results depend on the processing

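Of 2460 values of the 10 genes recomputed under 8 alternatives, 2347 kept their direction and side of the threshold, 60 newly passed, 33 no longer passed and 20, none of them past the threshold, changed sign. Of the counts 230 stayed within 1.5 times, those of the ratio tests among them, and 19 did not. The cause was not tested for those that moved. Leaving out X63, X81 and X155 was chosen after seeing the data. No paired analysis was possible because the labels give no replicate number or mouse that links libraries, and library codes were not used to pair them. Precision is limited for H2-M2 in the PBS groups, with as few as 3 counts.

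The difference between tissues at week 3 was passed by 1 of 10 genes, and by 2 in edgeR, 2 in DESeq2, 2 in a fit of all libraries and 0 without X63, X81 and X155. That between tissues in PBS mice at week 3 was passed by 0, and by 1 in edgeR, 1 in DESeq2 and 2 with sample quality weights. The difference between tissues at week 11 was passed by 0, and by 1 each in edgeR and DESeq2. The difference between weeks in airways was passed by 0, and by 1 in edgeR, DESeq2, with DESeq2 size factors, at a CPM of at least 10 and without the 3 libraries, and by 3 with quality weights. With no filter on low counts CS in parenchyma was passed by 1 in place of 2 (5 with quality weights), DEX in HDM.CS parenchyma by 3 in place of 6, and airways against parenchyma in PBS.AIR by 2 in place of 5.

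Signs changed for the interaction of HDM and DEX: H2-M2 in airways (-0.36 in edgeR, -0.35 in DESeq2 and with quality weights), Tap1 in parenchyma (0.05 in edgeR and DESeq2, 0.01 in a fit of all libraries, 0.09 with quality weights) and in airways (0.08 with quality weights), and Psmb9 in parenchyma (-0.01 with no filter). For CS in parenchyma Psmb8 was -0.00 in DESeq2, -0.01 with its size factors and in a fit of all libraries, and -0.03 with quality weights. Between tissues, Nlrc5 was -0.01 in DESeq2 and -0.02 with quality weights at week 11 and 0.04 with quality weights at week 3, Tap1 was -0.08 with quality weights at week 11, and H2-K1 in PBS mice was 0.01 at a CPM of at least 10 and 0.00 with no filter. Between weeks in airways H2-K1 was -0.06 with quality weights. With genes kept only at a CPM of at least 10, H2-M2 no longer passed by limma-voom for DEX in PBS.AIR airways (-2.24, adj. p = 0.28), PBS.CS airways (-2.29, adj. p = 0.12) and PBS.CS parenchyma (-2.51, adj. p = 0.31), nor with quality weights in PBS.AIR airways (-1.81, adj. p = 0.20).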
